A study of Mus musculus with 12 samples.

Results

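Homeostatic microglia genes are the genes that mark resting microglia, the resident macrophages of the brain, and 9 of them were followed here across models of Alzheimer's disease: P2ry12, P2ry13, Tmem119, Cx3cr1, Sall1, Siglech, Gpr34, Csf1r, and Selplg. Members were found as array probes whose transcript accession maps to these mouse symbols. This gave 15 probes of 39429, and the 9 genes are 9 of the 19648 genes that passed a filter on dim probes. Each of the 15 probes passed that filter and was marked by the scanner software as well above background on all 12 arrays.

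The 12 one-colour Agilent mouse arrays each carried RNA pooled from 3 animals of 1 model, so each model has 1 value and no replicate. The first group was prefrontal cortex of C57BL/6 males, without transgene or injection, at ages of 1.5, 4, 17, and 22 months. The second was hippocampus of transgenic mice labelled C57BL/6: NCSTN mice (10 months old, overexpressing a mutated human NCSTN gene), MAPT mice (12 months old, overexpressing wild-type human MAPT, the tau gene), and 5xFAD mice (6 months old, carrying mutated human APP among its transgenes). The third was hippocampus of ICR mice, males bought at 7 weeks of age, all injected with 1 agent. Amyloid-beta (Aβ, at 5 or 10 μM) and streptozotocin (STZ, at 2.5 or 3 mg/kg) went into the cerebral ventricles 14 days before the tissue was taken, and scopolamine (1 mg/kg) into the peritoneum 30 minutes before. The promoters of the transgenes are not given in the sources used here. Control arrays were not analysed here, so every comparison is between models within a group. Within the transgenic group, model and age cannot be told apart.

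Microglia arise from yolk sac precursors and keep themselves through signals of their neighbours. Neurons release CX3CL1, which CX3CR1 receives, and CSF1R receives both CSF1 and IL34 and is needed for microglia to survive. Transforming growth factor beta and the transcription factors PU.1 (Spi1) and SALL1 maintain the resting program. The purinergic receptor P2RY12 senses nucleotides leaked from damaged cells and steers the fine processes toward them. Around amyloid plaques microglia are known to enter another state, called disease-associated, in which some resting genes are turned down and lipid and lysosome genes are turned up.

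Of the 9 members, 5 have an entry among RefSeq promoter sequences (build GRCm38.p6). P2ry13 and P2ry12 are neighbours on chromosome 3 on the same strand, with 5388 bases between the genes, and Tmem119 and Selplg are neighbours on chromosome 5, with 17401 bases between them. The 250 bases before the start that the promoter table gives are printed for this neighbouring receptor pair and for Cx3cr1 and Siglech, the members that differed the most and in opposite directions in 5xFAD hippocampus. For Siglech that start lies inside the gene as the RefSeq gene table places it (from base 55768154), so the last bases of its window fall within the gene. Each is given 5′ to 3′ along its gene, and capitals mark AGGAAG, the core of the site that PU.1 binds, which was searched on both strands and chosen after the sequences had been seen.
P2ry13, chr3:59210883-59211132, minus strand: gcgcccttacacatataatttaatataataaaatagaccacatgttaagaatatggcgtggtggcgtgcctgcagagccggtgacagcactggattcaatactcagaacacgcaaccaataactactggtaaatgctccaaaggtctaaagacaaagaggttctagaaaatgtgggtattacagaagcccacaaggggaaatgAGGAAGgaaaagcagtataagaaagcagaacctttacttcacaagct
P2ry12, chr3:59262986-59263235, minus strand: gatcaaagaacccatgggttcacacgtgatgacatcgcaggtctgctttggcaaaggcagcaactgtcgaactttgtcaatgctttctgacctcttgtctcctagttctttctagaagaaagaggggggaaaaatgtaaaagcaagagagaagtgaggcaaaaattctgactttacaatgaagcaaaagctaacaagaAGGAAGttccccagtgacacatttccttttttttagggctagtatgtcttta
Cx3cr1, chr9:120068297-120068546, minus strand: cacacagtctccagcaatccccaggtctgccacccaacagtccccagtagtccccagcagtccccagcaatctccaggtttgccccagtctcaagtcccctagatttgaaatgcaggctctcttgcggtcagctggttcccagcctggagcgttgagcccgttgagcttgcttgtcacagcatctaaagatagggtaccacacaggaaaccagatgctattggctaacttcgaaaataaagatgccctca
Siglech, chr7:55767934-55768183, plus strand: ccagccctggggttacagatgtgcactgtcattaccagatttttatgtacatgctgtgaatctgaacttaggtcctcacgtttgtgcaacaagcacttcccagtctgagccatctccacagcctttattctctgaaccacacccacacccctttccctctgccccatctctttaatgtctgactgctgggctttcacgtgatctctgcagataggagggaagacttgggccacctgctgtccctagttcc
The letters occur in P2ry13 with their first base at -47 from the start and in P2ry12 at -52, and do not occur in the Cx3cr1 and Siglech windows. Over all entries, 3 of the 7 entries of members held them (Sall1 has several entries), against 29.5% of 32851 entries. A match describes the letters and is not a binding site.

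Levels are given as log2 of the processed spot signal after quantile normalization over the 12 arrays, and differences as log2 ratios, on which a value of 1 is a doubling. The error that the scanner software attached to a spot gives a scanner error of 0.18 for a 5xFAD ratio of a gene with 1 probe, and less for the 4 members with several probes. It holds no variation between animals. In tissue RNA, fewer cells of a type and less RNA per cell cannot be told apart. Neuron markers were well above background on all arrays (8 of 8), as the tissue labels have it. Several arrays stood apart in other ways. Xist was well above background on 3 of 3 transgenic arrays and 0 of the 9 others, and Ddx3y, Eif2s3y, and Uty showed the opposite, while the methods call the transgenic animals male. All ratios below are within a group. Choroid plexus markers summed to signals between 431 and 50470 in cortex and between 3333 and 199194 in ICR hippocampus, and pituitary markers to 5870 on the MAPT array against 503 on the NCSTN array.

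**Figure D1:**
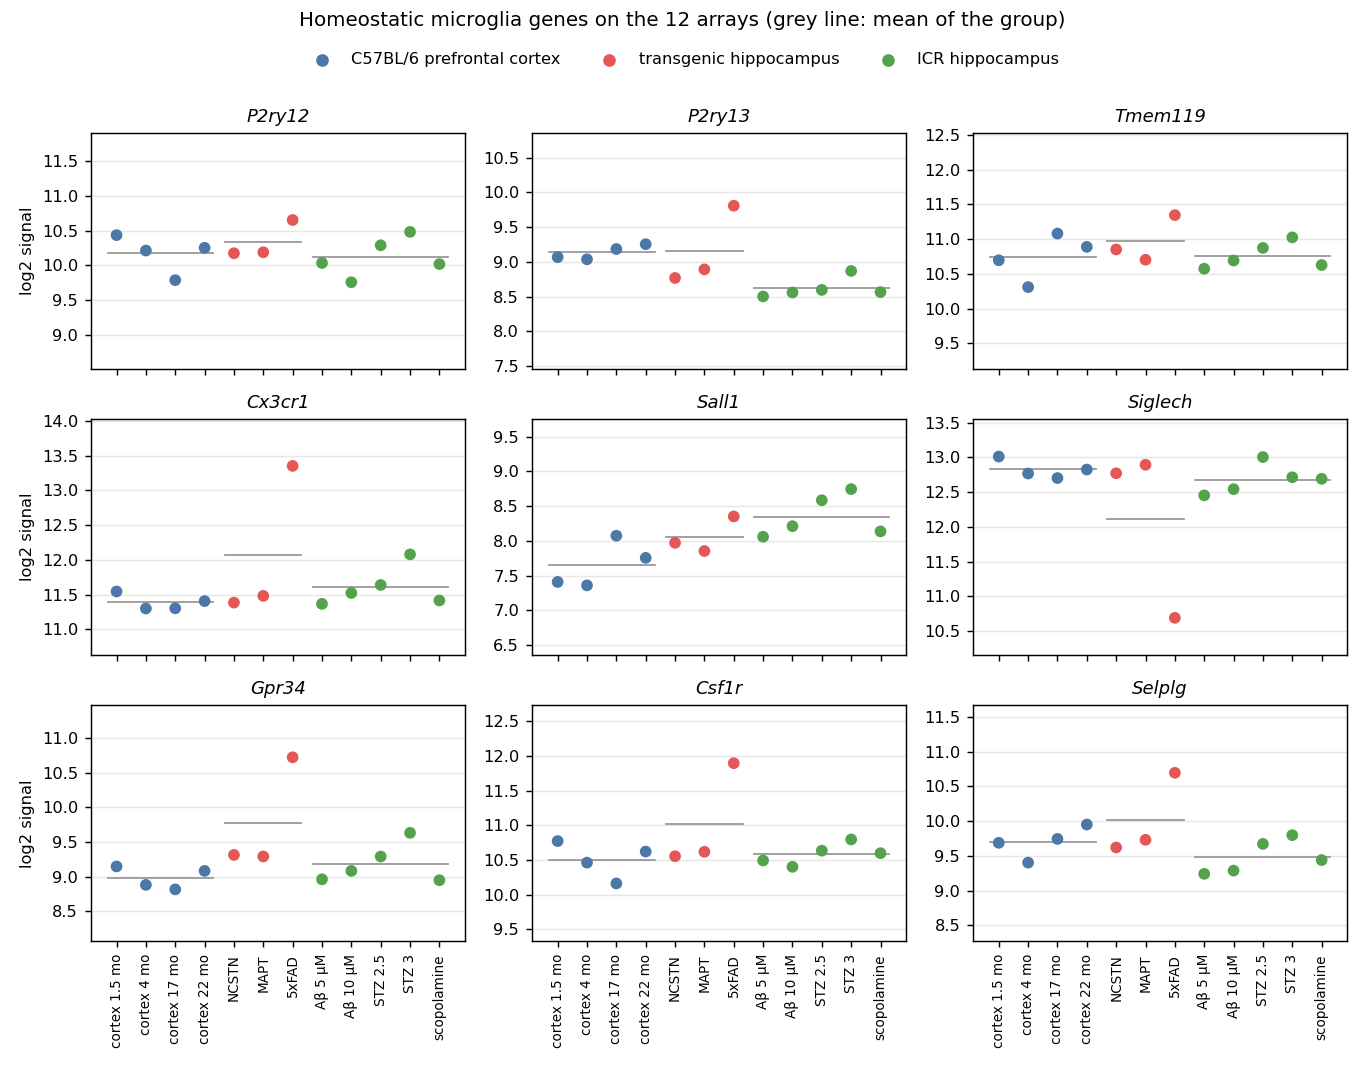
Log2 signal of each of the 9 genes (vertical axis, each panel spanning the same number of log2 units) on each of the 12 arrays (horizontal axis), 1 point per array, coloured by group, with the group's mean as a grey line. The 5xFAD array is the highest of all 12 for 7 genes and the lowest for Siglech, and STZ at 3 mg/kg is the highest for Sall1.

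In 5xFAD hippocampus, 8 of the 9 genes were higher than in both the NCSTN and the MAPT hippocampus, and Siglech was lower than in both. Among all genes tested, 37.1% lay above both and 46.3% below both. At least 2-fold differences over the mean of the other 2 transgenic arrays were seen for 4 members upward (Cx3cr1, Gpr34, Csf1r, and Selplg), where 6.05% of all genes reached it, and for 1 member downward (Siglech), where 4.7% did. The median ratio of the members was 0.98, against -0.055 over all genes, of which 95% lay between -1.28 and 1.50. With 1 array a model there is no test of these differences.

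Among the receptors, Cx3cr1, the receptor of the neuronal chemokine CX3CL1, had levels of 11.39 in NCSTN, 11.48 in MAPT, and 13.35 in 5xFAD. Its ratio in 5xFAD was 1.92 (a 3.78-fold difference, scanner error 0.10), and its 3 probes gave 1.28, 2.20, and 2.28. For all 3 probes the 5xFAD level lay above the other transgenic arrays, and the spread of Cx3cr1 over the transgenic arrays was wider than that of 96.6% of genes. Csf1r, the receptor of the survival factors CSF1 and IL34, had levels of 10.55, 10.62, and 11.89 in NCSTN, MAPT, and 5xFAD. Its ratio was 1.31 (2.48-fold, scanner error 0.10), with 0.71 at the lowest and 1.82 at the highest of its 3 probes, so that the lowest did not reach 2-fold on its own. Gpr34, a lysophosphatidylserine receptor, had levels of 9.31, 9.29, and 10.72, and a ratio of 1.42 (2.67-fold, scanner error 0.18).

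The purinergic receptors of chromosome 3 differed in size. P2ry13, a receptor of ADP, had levels of 8.77 in NCSTN, 8.89 in MAPT, and 9.81 in 5xFAD, a ratio of 0.98 (1.97-fold, scanner error 0.18), just under 2-fold. P2ry12 had levels of 10.17, 10.19, and 10.65, a ratio of 0.47 (1.39-fold, scanner error 0.18). The larger ratio was thus that of P2ry13, and both genes have the AGGAAG letters in the promoter window printed above.

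Among the other surface proteins, Selplg, the P-selectin ligand PSGL-1, had levels of 9.62 in NCSTN, 9.73 in MAPT, and 10.70 in 5xFAD. Its ratio was 1.02 (2.03-fold, scanner error 0.13), with 0.81 and 1.23 at its 2 probes. Tmem119, a transmembrane protein used as a marker of microglia against blood-borne macrophages, had levels of 10.85, 10.70, and 11.35 and a ratio of 0.57 (1.48-fold, scanner error 0.18). Sall1, the transcription factor that holds microglial identity, had levels of 7.97, 7.85, and 8.35 and the smallest upward ratio, 0.44 (1.36-fold, scanner error 0.18). For these 3 genes, as for the receptors above, the 5xFAD level lay outside the range of the other transgenic arrays.

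Siglech, a sialic acid-binding lectin of microglia and plasmacytoid dendritic cells, went the other way. Its levels were 12.77 in NCSTN, 12.89 in MAPT, and 10.69 in 5xFAD, a ratio of -2.14 (4.42-fold lower, scanner error 0.13). The probes disagreed in size. Probe A_55_P2165790 had levels of 9.81, 10.01, and 6.29, a ratio of -3.62 (12.3-fold lower), and its signal on the 5xFAD array was 5.67 times the local background. Probe A_55_P2141013 had levels of 15.73, 15.78, and 15.09, a ratio of -0.66 (1.58-fold lower), which does not reach 2-fold. For either probe the 5xFAD array was the lowest of all 12, 3.31 below the next array (Aβ at 5 μM) on the first and 0.15 below the next (scopolamine) on the second. The 2-fold call of Siglech thus rests on 1 probe. Without Siglech, the remaining 8 members had ratios from 0.44 to 1.92.

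**Figure D2:**
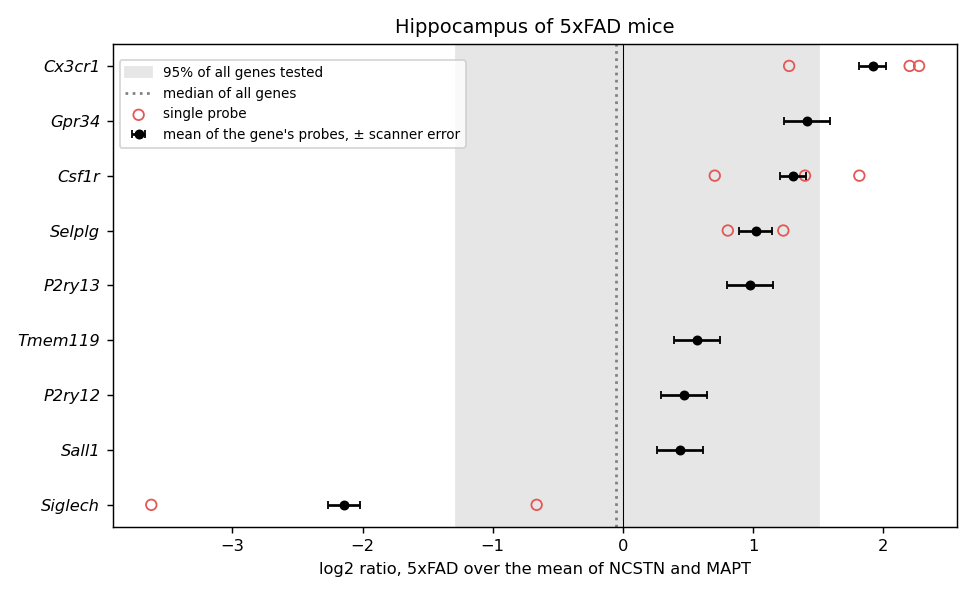
Log2 ratio of the 5xFAD array over the mean of the NCSTN and MAPT arrays (horizontal axis) for each of the 9 genes (vertical axis). Black points are the mean of a gene's probes with the scanner error as bars, open circles single probes of genes with several probes, the grey band 95% of all genes tested, and the dotted line their median. Cx3cr1 at 1.92 and Siglech at -2.14 lie outside the band, and the Siglech probes lie far apart.

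The choice of reference mattered little for the direction. Against NCSTN alone, 5 members were at least 2-fold higher, with P2ry13 added at 1.04, and 1 was at least 2-fold lower, where 6.31% and 5.44% of all genes were. Against MAPT alone, 3 members were higher, with Selplg at 0.96, and 1 lower, where 6.63% and 4.85% of all genes were. NCSTN and MAPT, set against each other, differed by between -0.12 and 0.15 for the members, with a median of -0.063 against 0.021 over all genes. No member differed 2-fold between them, where 2.23% of genes were at least 2-fold higher in NCSTN and 1.76% lower. The members thus had like levels on these 2 arrays, which differed in their pituitary markers. The part of pituitary tissue in the member values was not tested.

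Other genes of microglia gave the scale for these ratios. Of the 10 genes on a list shared by microglia and other macrophages, 9 were tested, and 8 of the 9 were at least 2-fold higher in 5xFAD, with a median of 1.73. Lyz2 (lysozyme) had a ratio of 3.04, Tyrobp (the signalling adaptor of TREM2) 2.75, Ctss (cathepsin S) was 5.65-fold higher, and Fcer1g (the Fc receptor gamma chain) had a ratio of 2.02. The member ratio minus this median was -0.31 for Gpr34, -0.42 for Csf1r, -0.71 for Selplg, -0.75 for P2ry13, -1.16 for Tmem119, -1.26 for P2ry12, -1.29 for Sall1, and -3.87 for Siglech. It was 0.19 for Cx3cr1, the member above the median. Set against the median of the genes shared with other macrophages, 8 members had a lower ratio, and set against the median of all genes 8 had a higher one. They were not below every gene of that list: for Gpr34, 5 of the 9 lay above it.

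A further 16 homeostatic genes spread in the same way, with a median of 0.90, 7 at least 2-fold higher and 2 at least 2-fold lower. Trem2, a lipid receptor, had a ratio of 3.24, Lpcat2, a lipid enzyme, 2.46, and Adora3, an adenosine receptor, 1.38. Lpcat2 had a level of 8.10 in 5xFAD and of 7.89 to 8.25 on the ICR arrays. On the NCSTN, MAPT, and cortex arrays it lay between 5.61 and 5.84. What sets these arrays apart for Lpcat2 was not tested. Downward lay Slc2a5, the fructose transporter, at -1.76 and Crybb1, a crystallin, at -1.01. Siglech was hence not the single homeostatic gene that lay lower in 5xFAD. Disease-associated genes had a median of 1.91, with 9 of 14 at least 2-fold higher. The highest were Cst7 (cystatin F) at 9.45, Itgax (the integrin CD11c) at 6.38, Ccl6 at 4.12, and Trem2, which stands on both lists. On the reference side, the scanner software placed Cst7 well above background on 1 of 2 arrays, so its ratio is less certain.

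Among transcription factors and genes of the transforming growth factor beta signal, 6 of 9 were at least 2-fold higher and none lower. Irf8 had a ratio of 2.32, Runx1 2.19, and Tgfb1, the cytokine itself, 1.77. The count includes Spi1, which was not well above background in MAPT and had a level of 4.95 in 5xFAD against 4.22 in NCSTN, a difference of 0.73. Against NCSTN alone 5 of the 9 were at least 2-fold higher. Mef2a, Mef2c, and Smad3 had ratios of -0.18, -0.42, and -0.046. Sall1, with 0.44, thus lay below the median of this list, 1.38.

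The ligands had no common direction. Csf1, a ligand of CSF1R, had a level of 9.42 in 5xFAD against 6.88 in NCSTN and 6.83 in MAPT, a ratio of 2.57. Il34, the other ligand of CSF1R, had a ratio of -0.45, and Cx3cl1, the ligand of CX3CR1, -0.34. Selp, the P-selectin that binds PSGL-1, had -1.40. So for CSF1R the receptor and 1 of its ligands were higher together, and for CX3CR1 the receptor was higher and the ligand was not.

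Markers of other cells of the tissue gave these values beside the member ratios. Border macrophage markers, 7 tested, had a median of 0.47, with 0 at least 2-fold higher, and summed to signals of 1464 in 5xFAD, 1305 in NCSTN, and 1110 in MAPT. That median depended on the reference, being 0.080 against NCSTN alone and 0.68, with 2 of 7 at least 2-fold higher, against MAPT alone. Monocyte and lymphocyte markers, 7 tested, had a median of -0.76, with 0 above 0 and 3 at least 2-fold lower. Their summed signals ran from 421 in 5xFAD to 991 in MAPT. Of the 7, 5 were well above background in NCSTN, 4 in MAPT, and 5 in 5xFAD. Among the 3 lower genes, Cd79a had levels of 7.26 in NCSTN, 3.33 in MAPT, and 3.21 in 5xFAD, so its call rests on the NCSTN array. Astrocyte markers had a median of 0.43, with Gfap (the astrocyte filament protein) at 1.79 and Aqp4 (the water channel) at 1.19, and neuron markers had a median of -0.12. Choroid plexus markers had a median of 0.70, with 5 of 7 above both reference arrays and 1 at least 2-fold higher (Kcnj13, at 1.31), although their summed signal, 107918, was below the 127125 in NCSTN and 137038 in MAPT. Oligodendrocyte markers had a median of 0.45, with 6 of 7 above both, and endothelial markers of -0.11, with Cldn5 (a tight junction protein) at -1.02. The part of these cells in the member ratios was not tested.

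**Figure D3:**
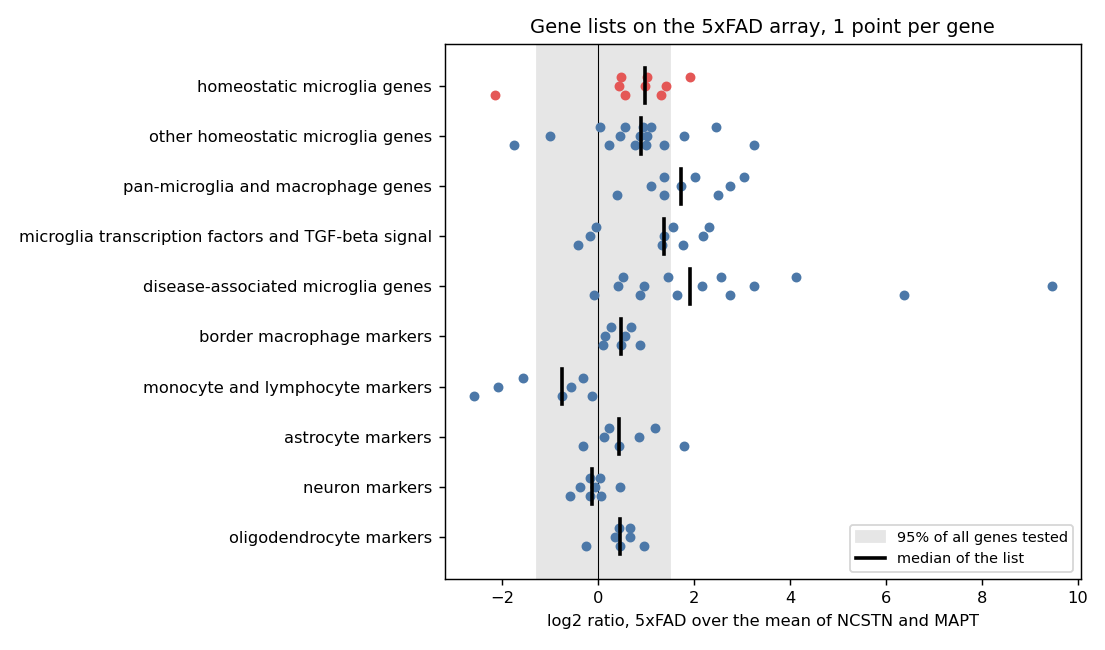
Log2 ratio of the 5xFAD array over the mean of the NCSTN and MAPT arrays (horizontal axis) for the genes of 10 lists (vertical axis), 1 point per gene, with vertical jitter that has no meaning. Black bars are the medians of the lists and the grey band holds 95% of all genes tested. The median of the homeostatic microglia genes, 0.98, lies between that of border macrophage markers, 0.47 (0.080 against NCSTN alone and 0.68 against MAPT alone), and that of the genes shared with other macrophages, 1.73.

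In cortex, the members differed by less than 2-fold between the age pairs and in both directions. No member differed 2-fold between the 17- and 22-month arrays and the 1.5- and 4-month arrays, where 1.93% of all genes were at least 2-fold higher in the older pair and 1.58% lower. The median ratio of the members was -0.064, against 0.012 over all genes, and its sign is not settled, since it was 0.069 without the 17-month array, 0.068 without the 1.5-month array, and 0.011 when a gene was read from its brightest probe. Both older arrays lay above both younger arrays for 4 members (Sall1, Tmem119, Selplg, and P2ry13), where 20.1% of genes did so, and both lay below for 0, where 15.1% did.

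Sall1 had levels of 7.41, 7.36, 8.07, and 7.76 at 1.5, 4, 17, and 22 months, a ratio of old over young of 0.53 (1.44-fold, scanner error 0.15). Tmem119 had levels of 10.70, 10.31, 11.08, and 10.89, a ratio of 0.48 (scanner error 0.14). Both were the highest at 17 months and lower at 22 months. Selplg had levels of 9.69, 9.40, 9.75, and 9.95, a ratio of 0.30, and P2ry13 levels of 9.07, 9.04, 9.19, and 9.26, a ratio of 0.17 that is close to its scanner error of 0.14. The gap between the nearest old and young arrays was 0.35 for Sall1, 0.19 for Tmem119, 0.12 for P2ry13, and 0.056 for Selplg, and it exceeded the scanner error of a difference of single arrays (0.21, 0.20, 0.20, and 0.14) for Sall1 alone.

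P2ry12 had levels of 10.44, 10.21, 9.79, and 10.25, and Csf1r of 10.77, 10.46, 10.16, and 10.62. Both were the lowest at 17 months, with ratios of -0.30 and -0.23, but the 22-month arrays lay within the range of the young arrays. Cx3cr1 (11.55, 11.30, 11.30, and 11.41), Siglech (13.01, 12.77, 12.70, and 12.83), and Gpr34 (9.15, 8.88, 8.82, and 9.08) had ratios of -0.068, -0.13, and -0.064. These 3 genes, with P2ry12 and Csf1r, were the highest on the 1.5-month array. The spread over the 4 arrays was below the median spread of all genes, 0.39, for Cx3cr1, Siglech, Gpr34, and P2ry13. It was above it for the 5 others, at 0.77 for Tmem119, 0.71 for Sall1, 0.65 for P2ry12, 0.61 for Csf1r, and 0.55 for Selplg, of which the widest exceeded that of 78.5% of genes and the narrowest that of 65.9%.

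Of related genes, none of the 9 genes shared with other macrophages and none of 16 further homeostatic genes reached it, with medians of 0.043 and 0.16. The ligands Csf1, Il34, and Cx3cl1 had ratios of 0.30, 0.25, and 0.0018. The 17-month array, where Sall1 and Tmem119 were the highest and P2ry12 and Csf1r the lowest, was also the array with the highest summed choroid plexus signal and the lowest summed oligodendrocyte signal, 63284 against 129686 at 4 months. Choroid plexus markers had a median ratio of old over young of 2.18, with 5 of 7 at least 2-fold higher. Their summed signal was 50470 at 17 months, against 561, 431, and 589 at 1.5, 4, and 22 months. By summed signal the 22-month array was thus close to the young arrays. Of disease-associated genes 1 of 14 was at least 2-fold higher (Cst7, at 1.10). The part of dissection in these member values was not tested.

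**Figure D4:**
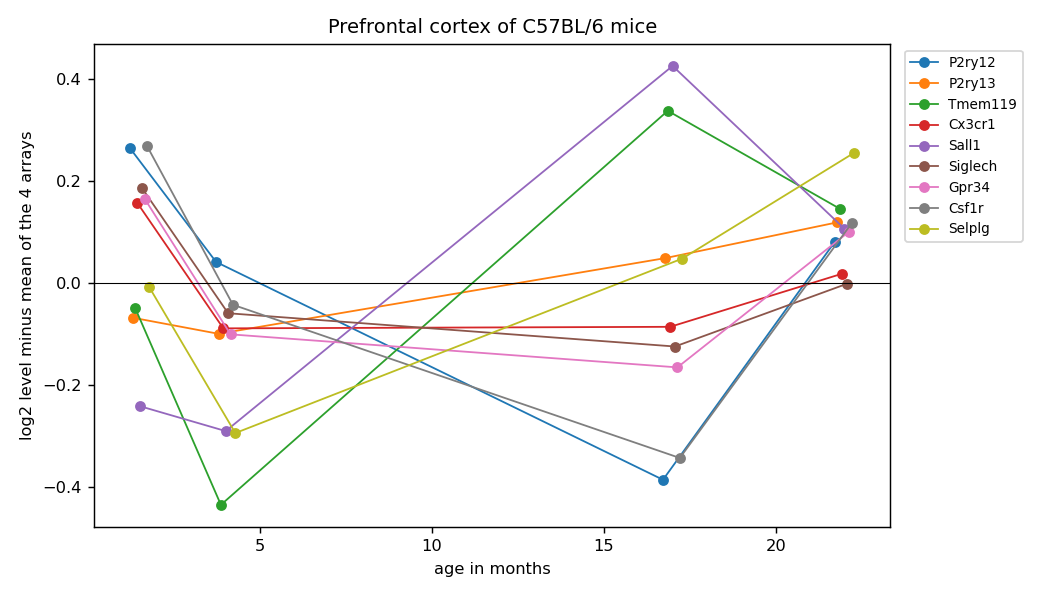
Log2 level of each gene minus its mean over the 4 cortex arrays (vertical axis) against age in months (horizontal axis, points shifted slightly so that they do not cover each other), 1 line per gene joining 4 arrays. Sall1 and Tmem119 peak at 17 months, where P2ry12 and Csf1r are the lowest.

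In ICR hippocampus, the differences were under 2-fold, and on the Aβ and the higher-dose STZ arrays they had 1 direction for all 9 members. No member differed 2-fold from the mean of the 4 other ICR arrays on any array. Of all genes, 3.82% were at least 2-fold higher and 1.58% lower with Aβ at 5 μM, 3.78% and 1.94% with Aβ at 10 μM, 2.47% and 4.82% with STZ at 2.5 mg/kg, 2.21% and 2.76% with STZ at 3 mg/kg, and 2.96% and 2.15% with scopolamine. On the array of STZ at 3 mg/kg, 9 of the 9 members lay above the mean of the others, by 0.041 for Siglech up to 0.59 for Cx3cr1, with a median of 0.39 against 0.014 over all genes. It was the highest of the 5 arrays for 8 members, where 23.2% of genes had it highest. Siglech was the highest with STZ at 2.5 mg/kg, which was the highest array for 23.5% of genes. That array had a median of 0.14, with 8 of 9 members above 0. The Aβ arrays had medians of -0.28 at 5 μM and -0.17 at 10 μM, with 0 of 9 members above 0 on either, and scopolamine had -0.12, with 2 of 9. Each array enters the reference of the others, so a high array lowers their ratios. The share of all genes above 0 on each array is not reported here. The counts above 0 alone thus do not set the members apart from other genes.

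The comparison of the STZ arrays with the 3 others was made after these values had been seen. Both STZ arrays lay above the Aβ and the scopolamine arrays for 9 of the 9 members, where 20.8% of all genes did so. In the authors' deposited matrix, 9 of 9 members and 48.6% of all genes had that order. The differences of the means ran from 0.19 for P2ry13 to 0.53 for Sall1, with a median of 0.41 against 0.021 over all genes. No member reached 2-fold, where 1.67% of genes did so upward and 4.17% downward.

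Sall1 had levels of 8.06 and 8.21 with Aβ at 5 and 10 μM, 8.14 with scopolamine, and 8.58 and 8.75 with STZ at 2.5 and 3 mg/kg, a difference of 0.53 (1.44-fold, scanner error 0.13). Gpr34 had levels of 8.96 and 9.08 with Aβ, 8.95 with scopolamine, and 9.29 and 9.63 with STZ, a difference of 0.46. P2ry12 had levels of 10.03 and 9.76 with Aβ, 10.02 with scopolamine, and 10.29 and 10.48 with STZ, a difference of 0.45. The gap between the lower STZ array and the highest other array was 0.37 for Sall1, 0.21 for Gpr34, and 0.25 for P2ry12, against a scanner error of 0.21, 0.20, and 0.20, and the level was higher at the higher dose in all 3.

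Cx3cr1 had levels of 11.37 and 11.52 with Aβ, 11.42 with scopolamine, and 11.64 and 12.08 with STZ, a difference of 0.42. Selplg had levels of 9.24 and 9.29 with Aβ, 9.44 with scopolamine, and 9.67 and 9.80 with STZ, a difference of 0.41. Tmem119 had levels of 10.57 and 10.69 with Aβ, 10.63 with scopolamine, and 10.87 and 11.03 with STZ, a difference of 0.32. The gap was 0.115 for Cx3cr1, 0.23 for Selplg, and 0.18 for Tmem119, which exceeded the scanner error (0.118, 0.14, and 0.20) for Selplg alone.

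For the last 3 members the arrays lay closer. Siglech had levels of 12.45 and 12.54 with Aβ, 12.69 with scopolamine, and 13.01 and 12.72 with STZ, with the lower STZ array 0.022 above scopolamine. Csf1r had levels of 10.49 and 10.40 with Aβ, 10.60 with scopolamine, and 10.63 and 10.80 with STZ. P2ry13 had levels of 8.503 and 8.560 with Aβ, 8.57 with scopolamine, and 8.60 and 8.87 with STZ. The gap was 0.037 for Csf1r and 0.032 for P2ry13, and for all 3 genes it was within the scanner error (0.14, 0.12, and 0.21).

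In lists of related genes, both STZ arrays were above the others for 6 of 16 further homeostatic genes, 6 of 9 genes shared with other macrophages, 3 of 9 transcription factors and genes of the transforming growth factor beta signal, 1 of 14 disease-associated genes, and 0 of 7 border macrophage markers. Of the further homeostatic genes, Adora3 and Olfml3 had differences of 0.67 and 0.48, and Ltc4s, leukotriene C4 synthase, was at least 2-fold lower (-1.06). Of the other lists, Lyz2 (-1.24) and Spp1, osteopontin (-1.44), were at least 2-fold lower. For these 2 genes the arrays overlapped, with STZ at 3 mg/kg (5.88 and 6.22) above scopolamine (5.65 and 5.17). Lyz2 was not well above background with STZ at 2.5 mg/kg, where its level was 4.26. Among the ligands, Csf1 had a difference of -0.63, Il34 0.25, and Cx3cl1 0.30. Selp had levels of 6.33 and 5.91 with Aβ, 5.74 with scopolamine, and 6.91 and 6.70 with STZ, a difference of 0.81 with both STZ arrays on top.

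Markers of other cells differed more between these arrays. Choroid plexus markers were at least 2-fold lower on the STZ arrays in 7 of 7 genes, with a median of -5.44. Border macrophage markers had a median difference of the means of -1.26, with 4 of 7 at least 2-fold lower. Among these 4 were Mrc1 (the mannose receptor) at -1.26 and Pf4 (a platelet chemokine) at -1.35. For Mrc1 and Pf4 the arrays overlapped, with STZ at 3 mg/kg above scopolamine. Both STZ arrays lay below all the others for 2 of the 7 markers. Neuron markers had a median of 0.19 and endothelial markers of -0.26. The part of these cells in the member values was not tested.

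**Figure D5:**
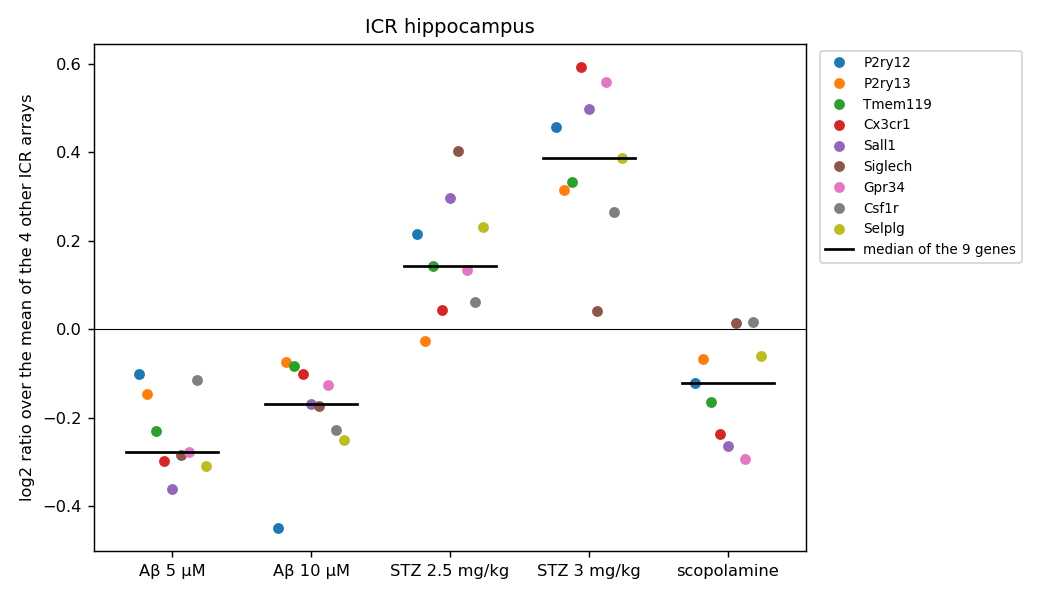
Log2 ratio of each ICR hippocampus array over the mean of the 4 other ICR arrays (vertical axis) for the 5 arrays (horizontal axis), 1 point per gene, with the median of the 9 genes as a black bar. The medians are -0.28 and -0.17 with Aβ, 0.14 and 0.39 with STZ, and -0.12 with scopolamine.

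The likeness of the members to each other differed between the groups. After the mean of each group was taken away, the correlation of each member with the mean of the 8 others over the 12 arrays was between 0.64 (Sall1) and 0.95 (Selplg) for 8 members and -0.75 for Siglech. With the 5xFAD array left out of the correlation but kept in the group mean, it was between 0.59 and 0.92, and -0.39 for Siglech. These values thus still depend on the 5xFAD array. Within the 5 ICR arrays it was 0.58 for Siglech and between 0.87 and 0.97 for the 8 others. Within the 4 cortex arrays it was -0.10 for Sall1, 0.080 for P2ry12, 0.31 for Csf1r, 0.33 for Tmem119, and between 0.47 and 0.81 for the 5 others. These arrays share their normalization and have 1 value a model, so the correlations are descriptions. Among the genes that followed the mean of the members most closely, of 12926 genes well above background on all 12 arrays, were Ranbp10 (Pearson's r of 0.95), Pcnx2 (0.94), Smg6 (0.94), Hcls1 (0.93), Tnfaip8l2 (0.93), Sh3glb2 (0.93), and Sema4d (0.92). Without the 5xFAD array these values lay between 0.87 and 0.91. None of these 7 stood on a list used here.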

How the data were processed

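RNA of cortex or hippocampus, pooled from 3 animals a model, was hybridized to 1 Agilent 44K array a model. The intensity values of every spot were deposited by the authors as the scanner software gave them, with flags and not normalized between arrays, and a matrix of their processed intensity values was used only as an alternative. From the processed signal, log2 was taken, outlier spots were left out (110 to 234 an array), and spots of a probe were averaged. Following the stated methods, a probe had to be 1.4-fold brighter than its surroundings, which was required of every array and left 36520 of 39429 probes, and the remaining values were quantile normalized. Accessions were matched without versions to the RefSeq gene table of GRCm38.p6, which named 69.8% of probes, and probes of a gene were averaged. No column belonged to another sample.

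Each group has 1 array, so no test was run and a difference counts as called at 2-fold. The number of arrays limits the precision. Members and gene lists were chosen with earlier results of these data known. The text names the 9 members, the genes of each list past 2-fold (at most 4 a list and comparison, the largest first), ligands of the members, the 8 genes most like the members, and genes for the sex check, and some items under this rule are not reported here. Genes of a list named without reaching 2-fold were chosen after their values were seen. Alternatives were scaling to the 75th percentile, quantile normalization within groups, normexp (offset 50, on median signals, since mean signals were not used here), the deposited matrix, other filters, the brightest probe, other thresholds, and arrays left out. Python 3.11.15, pandas 2.3.3, R 4.3.3, and limma 3.58.1 were used, and the steps were tested on simulated data.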

Additional observations from a re-analysis of the deposited data

How the results depend on the processing

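Under every alternative run (scaling, background correction, filters, brightest probe, deposited matrix, left-out arrays), 8 members stayed above and Siglech below 0 in 5xFAD, and the median stayed between 0.81 and 1.05, with a mean over members of 0.66 (the median was between 0.92 and 1.04 with 1 reference array left out). The count at least 2-fold higher was 3 to 5, and 1 (Cx3cr1) at a 3-fold threshold. The count at least 2-fold lower became 0 with the brightest probe, which is the Siglech probe with the smaller difference. Between NCSTN and MAPT the median became -0.015 with normexp, -0.021 with the brightest probe, and -0.027 as a mean. In cortex the mean over members was 0.077, the median with the brightest probe 0.011, and the median ran from -0.19 without the 4-month array to 0.069 without the 17-month array, and was 0.068 without the 1.5-month array, so its direction is not settled. Both older arrays lay above for 4 members under the 8 scaling, filter and probe alternatives, and both below for 0, or 1 (Siglech) with the brightest probe.

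In ICR hippocampus each array's median kept its sign. With the deposited matrix, the medians were -0.16 and -0.29 for Aβ at 5 and 10 μM, 0.43 and 0.47 for STZ at 2.5 and 3 mg/kg, and -0.34 for scopolamine. With normexp they were -0.18 for Aβ at 5 μM and 0.20 for STZ at 2.5 mg/kg. With the brightest probe they were -0.23 and -0.12 for Aβ, and the mean for Aβ at 5 μM was -0.24. With 1 reference array left out, they ran from -0.33 to -0.16 and from -0.26 to -0.049 for Aβ at 5 and 10 μM, from 0.092 to 0.29 and from 0.33 to 0.48 for the STZ doses, and from -0.20 to -0.0085 for scopolamine. The values nearest 0 of Aβ at both doses and of scopolamine were those without STZ at 3 mg/kg, and without STZ at 2.5 mg/kg they were -0.21, -0.097, and -0.079. The highest of STZ at 2.5 mg/kg was without STZ at 3 mg/kg, and its lowest without Aβ at 5 μM. The value of Aβ at 10 μM was -0.26 without Aβ at 5 μM, and that of scopolamine -0.20 without Aβ at 10 μM. The count of members with both STZ arrays on top, an alternative added after seeing the data, was 9, or 8 (without Siglech) with normexp and the brightest probe. With the deposited matrix 48.6% of all genes had that order. At a 1.5-fold threshold, 1 member (Cx3cr1, with STZ at 3 mg/kg) passed outside 5xFAD. Causes were not tested. No paired analysis was possible because each group has 1 array. Pooling and a single array a model leave the spread between animals unmeasured, and all member probes had at least 5.67 times the local background.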
